A study of Mus musculus with 26 samples.

Results

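*H19* and *Igf2* are a pair of imprinted genes that lie next to each other on mouse chromosome 7 and were followed here in ES cells with and without the zinc finger protein ZFP57. They are 2 of the 24409 genes in the expression table, taken by symbol, and 2 of the 1423 ZFP57 peaks lie in the 5000 bp upstream of *H19*, where the control region of the pair is found. The genes were taken by name and the peaks by position, from a list that holds regions past the peak caller's threshold. All cells compared here were male ES cell lines of the C57BL/6J strain, derived from embryos collected at embryonic day 2.5. They were kept in N2B27 medium with LIF and the inhibitors PD0325901 (of Erk signalling) and CHIR99021 (of Gsk3) for at most 15 passages. Wild-type (WT) lines were compared with zygotic ZFP57 knockout (KO) lines, in which the exons that code for the KRAB domain and the zinc fingers are disrupted. RNA was sequenced from 3 WT and 2 KO lines (paired reads, 150 bp), and ZFP57-bound DNA likewise from 3 WT and 2 KO lines (100 bp). The mother of a zygotic KO embryo carries a working copy of the gene, so these lines are no model of an egg that lacks ZFP57, and each line comes from 1 embryo. Lines without maternal and zygotic ZFP57, on a hybrid background mixed from C57BL/6J and another strain, were not analysed here. Only a peak list named for the hybrid lines was used.

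*H19* makes a long non-coding RNA from the maternal chromosome, and *Igf2* makes insulin-like growth factor 2, a fetal growth factor, from the paternal chromosome. Their control region is methylated on the paternal copy. On the unmethylated maternal copy the insulator protein CTCF binds it and keeps *Igf2* from enhancers that lie beyond *H19*. ZFP57 binds the hexanucleotide TGCCGC when its CpG is methylated and brings in the co-repressor KAP1, encoded by *Trim28*. Both genes are best known for high levels in the placenta and in fetal endoderm and mesoderm, not in ES cells.

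Both genes are read from the minus strand. On GRCm38 (mm10), *H19* spans chr7:142575530-142578146 and *Igf2* spans chr7:142650768-142666816, with 72621 bp between the *H19* start and the *Igf2* 3′ end. The peak nearer to *H19* (proximal) covers chr7:142579955-142580356, which is 402 bp wide and 1809 to 2210 bp upstream of the *H19* start. The farther one (distal) covers chr7:142581726-142582099, which is 374 bp wide and 3580 to 3953 bp upstream. They are separated by 1369 bp. Both lie between the 2 genes, outside any RefSeq gene, and hold no soft-masked repeat bases. *Igf2* had no peak of its own: its nearest was 68669 bp away, and it was one of the *H19* pair. The next peak beyond the pair was 360543 bp outside the span of the 2 genes, although chromosome 7 carried 78 peaks.

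The following 300 bases from each peak, in the direction of *H19* transcription, are shown because they hold every copy of the hexanucleotide in the 2 peaks. Capitals mark TGCCGC on either strand (GCGGCA on the opposite one). The proximal stretch is chr7:142580057-142580356 and the distal stretch chr7:142581771-142582070, both on the minus strand.
Proximal peak: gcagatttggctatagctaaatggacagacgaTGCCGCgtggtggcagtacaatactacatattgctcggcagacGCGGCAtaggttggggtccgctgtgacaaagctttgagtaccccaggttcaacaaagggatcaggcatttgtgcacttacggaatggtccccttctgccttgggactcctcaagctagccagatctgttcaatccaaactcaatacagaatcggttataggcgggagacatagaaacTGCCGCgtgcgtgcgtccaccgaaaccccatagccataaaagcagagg
Distal peak: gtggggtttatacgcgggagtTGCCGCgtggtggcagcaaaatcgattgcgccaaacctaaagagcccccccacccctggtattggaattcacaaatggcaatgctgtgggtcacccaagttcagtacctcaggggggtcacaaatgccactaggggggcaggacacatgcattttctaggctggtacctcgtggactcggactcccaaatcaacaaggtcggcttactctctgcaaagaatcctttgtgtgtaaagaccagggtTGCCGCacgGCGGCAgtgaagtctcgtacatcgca

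Each peak held 3 copies of the hexanucleotide, which placed both above 93.3% of all peaks. The copies lay mostly off centre: the central 200 bp held 1 in the proximal peak and 0 in the distal one. The median peak held 1 copy, and 96 peaks (6.75%) held at least 3. Over all peaks, 1309 (92.0%) held a copy, against 79 (5.55%) of windows of the same width placed 2000 bp upstream. Each of the *H19* peaks had 16 CpGs, more than 73.1% of peaks, and their widths exceeded those of 76.2% (proximal) and 72.5% (distal) of peaks. Their GC content was 50.5% and 52.7%. The span from *H19* to *Igf2* held 11 copies in all. The 6 copies in the 5000 bp upstream of *H19* were all inside the peaks, and the 5 others, the nearest of them 18439 bp upstream, were outside any peak. Copies far from *H19* were thus not in the peak list.

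**Figure D1:**
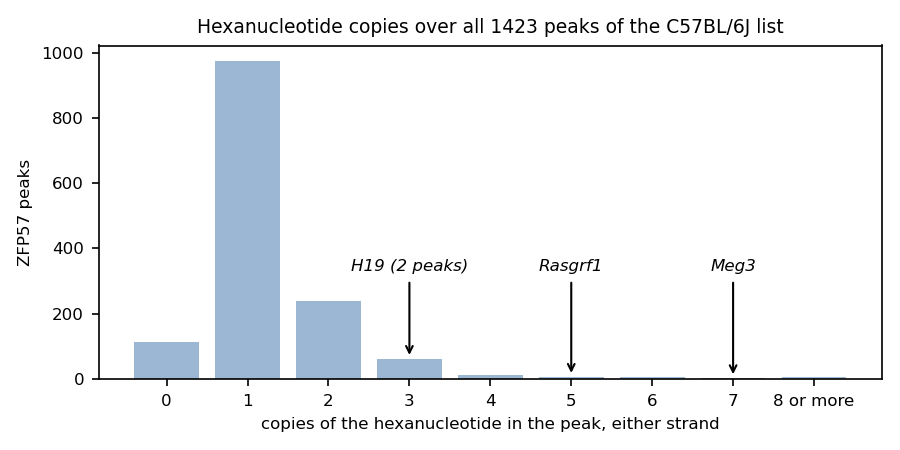
Number of ZFP57 peaks (vertical axis) by copies of the hexanucleotide TGCCGC per peak (horizontal axis, both strands), over the 1423 peaks. The 2 H19 peaks hold 3 copies each, the Rasgrf1 peak 5 and the Meg3 peak 7, while the median peak holds 1.

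The control region is also where CTCF binds, so both strands were searched for a CTCF-type pattern of 14 letters, written from the known CTCF sites of this region. Its fixed letters are those that the capitals of the 4 sites printed here share, and the 3 positions at which they differ may be any base. Because it was written from this region, its presence here is no finding, and only the position of the matches relative to the peaks is described. The pattern starts with CCGC, which is also the end of the hexanucleotide. The 5000 bp upstream of *H19* held 4 matches, all reading in the direction of *H19*. The 26 bases around each are shown to compare the letters just before the match, which is in capitals. Site 1 lies at chr7:142580304-142580329, site 2 at chr7:142580759-142580784, site 3 at chr7:142581785-142581810 and site 4 at chr7:142582029-142582054.
Site 1: gacgatgCCGCGTGGTGGCAGtacaa
Site 2: gatgctaCCGCGCGGTGGCAGcatac
Site 3: agggttgCCGCACGGCGGCAGtgaag
Site 4: ggagttgCCGCGTGGTGGCAGcaaaa

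Sites 1, 3 and 4 are preceded by TG, so that the CTCF-type match runs into a copy of the ZFP57 hexanucleotide. These 3 were the sites inside a peak, site 1 in the proximal and sites 3 and 4 in the distal one. Site 2 has TA before the match, holds no hexanucleotide and lay 408 bp from the nearest peak. On the chromosomes of the reference the pattern had 561 matches, of which 29 were preceded by TG and 532 were not. Inside a peak were 3 of the 29, which are those upstream of *H19*, and 0 of the 532. Of all 1423 peaks, 2 (0.141%) held a match, the proximal and the distal *H19* peak. In RefSeq promoter windows of 300 bases the pattern was found in 40 of 32851 (0.122%) and the hexanucleotide in 3813 (11.6%). These matches describe letters and are not measured CTCF sites.

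**Figure D2:**
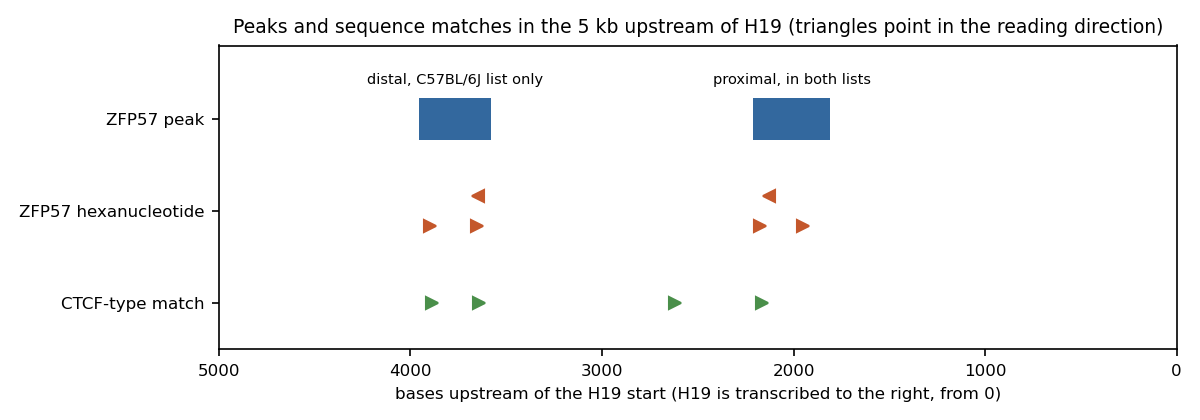
Map of the 5000 bp upstream of H19, with bases upstream of the H19 start on the horizontal axis, ZFP57 peaks as boxes, and matches to the hexanucleotide and to the CTCF-type pattern as triangles that point in the reading direction. All 6 hexanucleotides and 3 of the 4 CTCF-type matches lie in the 2 peaks, and the match at 2618 bp lies between them.

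The list named for the hybrid lines held 743 (52.2%) of the 1423 peaks. The proximal peak was in it and the distal one was not. Among the samples used here, none holds ZFP57-bound DNA from hybrid lines, so this is membership in a list and not a comparison of measured binding. Of the 96 peaks with at least 3 hexanucleotides, 60 (62.5%) were in it. The peak lists give positions only, with no height and no value per library, so the depth behind each peak is unknown and binding in the KO lines was not measured here.

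The control regions of *Meg3* and *Rasgrf1*, which are also methylated on the paternal copy, had 1 peak each. The peak upstream of *Meg3*, at chr12:109527075-109528603, was 1529 bp wide with 7 hexanucleotides and 66 CpGs, and started 12393 bp from the gene. The peak upstream of *Rasgrf1*, at chr9:89879664-89879922, was 259 bp wide with 5 hexanucleotides and 28 CpGs, and started 29586 bp from the gene. Both were in the hybrid list. The *H19* region differed from them in having its copies divided over 2 peaks.

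Expression is given as FPKM, fragments per kilobase of transcript scaled to the size of the library, which is a level per length. The targeted gene was checked first. *Zfp57* had 75.9, 72.3 and 70.6 FPKM in the WT libraries and 19 and 21.6 in KO. The log2 fold change was -1.84 (SE 0.064, limma adjusted p = 2.34e-04), so its transcript was reduced but still present. A level per gene does not show which exons the fragments came from. The study reported from western blots that the mutants had no ZFP57 protein. The libraries had 17504 to 18138 genes above 0 FPKM. Total fragments are not given. The spacing of low values in short RNA genes put 1 fragment on 1 kb at 0.0167 to 0.02 FPKM. ES cell markers were high, with a summed level of 10 genes of 1090 to 1150 FPKM in WT and 1180 to 1260 FPKM in KO. Of the 10, 5 rose and 0 fell by limma, where 18.8% of all genes tested rose and 22.3% fell, and those that rose were *Pou5f1*, *Esrrb*, *Klf4*, *Tfcp2l1* and *Utf1*. In bulk RNA, fewer cells that express a gene and less RNA per cell cannot be told apart.

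*H19* was low in every library. Its level was 0.44, 0.62 and 0.52 FPKM in the WT libraries and 0.59 and 0.61 FPKM in the KO libraries. The groups overlapped, since 1 WT library was above both KO libraries. The mean was 0.527 ± 0.0902 FPKM (SD, n = 3) in WT and 0.6 ± 0.0141 FPKM (SD, n = 2) in KO. The log2 fold change, KO over WT on log2(FPKM + 0.1), was 0.17 with an SE of 0.17 and a 95% interval from -0.25 to 0.59 (limma adjusted p = 0.472). An exact permutation test over the libraries, two-sided, gave p = 0.4, where 0.1 is the smallest p that 3 against 2 libraries allow. The interval leaves room for a rise of 0.59 on the log2 scale, so the result does not show that the levels were equal. With an exon length of 2288 bp in RefSeq, the WT levels rest on about 57, 85 and 59 fragments and the KO levels on about 72 and 78. In WT, *H19* was above 51.3% of all genes in the table, and its fold change was larger in size than those of 37.2% of the 14612 genes tested.

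*Igf2* was lower still. Its level was 0.17, 0.12 and 0.08 FPKM in the WT libraries and 0.23 and 0.21 FPKM in the KO libraries. Both KO libraries were above all WT libraries, a pattern shared by 30.3% of the genes tested. The mean was 0.123 ± 0.0451 FPKM (SD, n = 3) in WT and 0.220 ± 0.0141 FPKM (SD, n = 2) in KO, a ratio of 1.78. The log2 fold change was 0.54 with an SE of 0.24 and a 95% interval from -0.047 to 1.12, and it did not pass the test (limma adjusted p = 0.124). Quantile normalization brought it past the threshold, at a log2 fold change of 0.78 (limma adjusted p = 0.0403). The exact permutation test gave p = 0.2. The WT levels rest on about 54, 41 and 23 fragments and the KO levels on about 70 and 67, for an exon length of 5683 bp. The fold change was above those of 90.7% of the genes tested, while 41.1% of all genes tested passed the threshold, and 31.2% of the 3948 with a mean under 1 FPKM (8.61% as rises).

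The ratio of *H19* to *Igf2* within a library was 2.59, 5.17 and 6.5 in WT and 2.57 and 2.9 in KO. The groups overlapped. On log2(FPKM + 0.1), and not on these plain ratios, *H19* relative to *Igf2* changed by -0.37 in KO (exact permutation p = 0.4). *H19* was thus the higher of the pair, per length, in all 5 libraries. Of the 4 RefSeq start windows of *Igf2*, 1 held the hexanucleotide, in no peak. It is shown with the hexanucleotide in capitals, as the one copy at an annotated *Igf2* start (chr7:142661226-142661251, minus strand, GRCm38.p6).
Igf2 window: cggtgtcccaGCGGCAgcacagattt

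**Figure D3:**
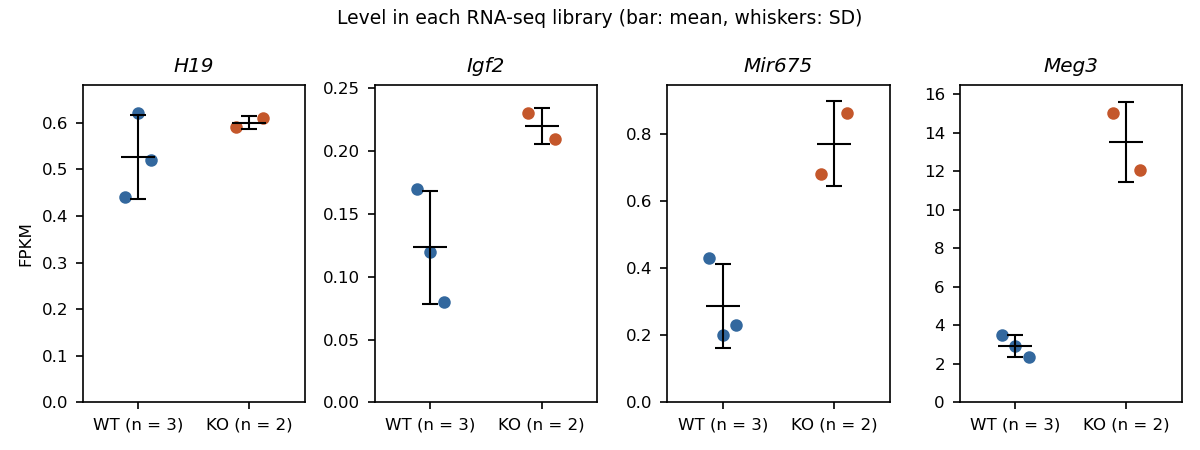
FPKM (vertical axis, starting at 0 and scaled for each gene) in the 3 WT and 2 KO libraries for H19, Igf2, Mir675 and Meg3. Points are libraries, bars are means and whiskers SD. The groups overlap for H19, while both KO libraries are above all WT libraries for the other three, of which Igf2 does not pass the test.

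The other genes around the pair were mostly silent. Of 14 genes in the table within 200 kb, *H19* and *Igf2* included, 5 had a mean of at least 0.1 FPKM and were tested. Of these, 2 rose and 0 fell, where 18.8% of all genes tested rose and 22.3% fell. Those that rose were *Mir675* and *Ctsd*, and 1 gene was called without WT replicate 3 or without KO replicate 2. *Mir675* is a microRNA gene inside the first exon of *H19*, and *Ctsd* encodes the lysosomal protease cathepsin D. The median log2 fold change of the 5 was 0.40, against -0.013 over all genes. *Ins2* (insulin), *Mir483* (a microRNA inside *Igf2*), *Nctc1*, *Prr33* and *Syt8* were listed at 0 in every library. *Igf2os*, the antisense RNA of *Igf2*, was between 0 and 0.04 FPKM. The troponin genes *Tnnt3* and *Tnni2* and *Lsp1* did not exceed 0.03 FPKM.

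*Mir675* had 0.43, 0.20 and 0.23 FPKM in the WT libraries and 0.68 and 0.86 FPKM in the KO libraries, and the groups did not overlap. Its log2 fold change was 1.21 (SE 0.28, limma adjusted p = 0.017), while the exact permutation test gave p = 0.2. It is 84 bp long, so these values rest on about 2, 1 and 1 fragments in WT and 3 and 4 in KO, and *H19* transcripts cover the same bases. The call therefore rests on very few fragments, and total RNA libraries of this kind do not measure the mature microRNA. The 2 mature products are shown with the seed, bases 2 to 8, in capitals (RefSeq, GRCm38.p6). They do not share a seed.
mmu-miR-675-5p: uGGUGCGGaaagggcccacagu
mmu-miR-675-3p: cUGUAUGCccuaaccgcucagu

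*Ctsd* had 32.1, 29.8 and 30.5 FPKM in WT and 38.2 and 43.3 FPKM in KO, a log2 fold change of 0.40 (SE 0.064, limma adjusted p = 0.0044). *Mrpl23*, a mitochondrial ribosomal protein gene that lies between *Ctsd* and *H19*, had 8.62, 7.70 and 8.88 FPKM in WT and 8.60 and 8.81 FPKM in KO and did not pass the test (limma adjusted p = 0.588). Within 500 kb, 10 genes were tested and 4 rose, which is 4 of 10 called where 41.1% of all genes were called, and adds *Cd81*, a tetraspanin gene, and *Tssc4*. *Cd81* rose from 30.4 to 46.2 FPKM (log2 fold change 0.59, limma adjusted p = 0.00266) and *Tssc4* from 3.4 to 4.08 FPKM (log2 fold change 0.26, limma adjusted p = 0.0407). Of the other genes between 200 and 500 kb away on the list of neighbours, *Ascl2*, a trophoblast transcription factor, had means of 0.470 FPKM in WT and 0.560 FPKM in KO (limma adjusted p = 0.36). *Th*, which encodes tyrosine hydroxylase, had 0.03 to 0.04 FPKM in WT and 0.08 and 0.14 FPKM in KO and was too low to be tested. *Dusp8* and *Ifitm10* did not exceed 0.03 FPKM.

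*Meg3*, a maternally expressed non-coding RNA gene of another paternally methylated region, was much higher in KO. It had 3.52, 2.91 and 2.34 FPKM in WT and 15.0 and 12.1 FPKM in KO, a log2 fold change of 2.18 (SE 0.18, limma adjusted p = 5.75e-04). The ratio of *Meg3* to *H19* within a library was 8.0, 4.69 and 4.5 in WT and 25.4 and 19.8 in KO. On log2(FPKM + 0.1), the scale of the fold changes and not of these plain ratios, the change of *Meg3* exceeded that of *H19* by 2.01 (exact permutation p = 0.1, the smallest possible). Against *Igf2* the ratio was 20.7, 24.3 and 29.2 in WT and 65.3 and 57.5 in KO. On log2(FPKM + 0.1) the change of *Meg3* exceeded that of *Igf2* by 1.65 (exact permutation p = 0.1). *Dlk1*, the paternally expressed partner of *Meg3*, was at 0.01 to 0.04 FPKM, and *Rasgrf1* was at 0 to 0.01 FPKM.

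The growth factor made by *Igf2* acts through the receptors IGF1R and INSR, is cleared by IGF2R, and is held by binding proteins. Over 28 genes of this pathway, 21 were tested, 6 rose and 8 fell, and the median log2 fold change was 0.04. That is 14 of 21, where 41.1% of all genes passed. Without KO replicate 1 it was 9 of 21, where 33.0% of all genes passed in that fit, and without KO replicate 2 again 9 of 21, where 28.3% passed. *Igf2* was the only ligand gene that reached the filter: *Igf1* did not exceed 0.05 FPKM, and *Ins1* and *Ins2* were listed at 0.

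All 3 receptor genes tested fell, where 22.3% of all genes tested fell. *Igf1r*, the main signalling receptor, went from 4.31 ± 0.23 to 2.97 ± 0.0566 FPKM (SD, n = 3 and 2), a log2 fold change of -0.52 (SE 0.075, limma adjusted p = 0.00308). *Igf2r*, itself imprinted, went from 10.1 ± 0.401 to 7.23 ± 0.99 FPKM, a log2 fold change of -0.49 (limma adjusted p = 0.00728). *Insr*, the insulin receptor, went from 1.77 ± 0.291 to 1.22 ± 0.0141 FPKM, also a log2 fold change of -0.49 (limma adjusted p = 0.0451). For each of them both KO libraries were below all WT libraries, as for 33.1% of all genes tested. The fourth receptor gene, *Insrr*, was at 0 to 0.01 FPKM.

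Of 8 genes for binding proteins, 6 were tested, 3 fell and 2 rose, against 22.3% and 18.8% of all genes tested. *Igfbp2*, the most abundant of them, had 40.9, 39.2 and 40.4 FPKM in WT and 20.9 and 19.3 FPKM in KO, a log2 fold change of -0.996 (SE 0.047, limma adjusted p = 2.92e-04). *Igfbp4*, on chromosome 11, and *Igfbp5* fell by 0.96 and 1.06 on the log2 scale (limma adjusted p = 0.0206 and 0.0114). *Igfbp7* and *Igfals*, whose product carries IGF complexes in serum, rose by 0.61 and 0.46 (limma adjusted p = 0.0442 and 0.048). *Igfbp3* did not pass (limma adjusted p = 0.185).

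The 3 genes for proteins that bind *Igf2* mRNA all passed, in different directions. *Igf2bp1*, on chromosome 11, fell from 92.1 to 67.5 FPKM (log2 fold change -0.45, limma adjusted p = 0.00143). Over all genes tested 2749 rose and 3253 fell, while without chromosome 11 the counts were 2682 and 2373. Many of the falls thus lay on that chromosome, where *Igfbp3*, *Igfbp4* and *Grb10* lie too. The part of this shift in the values of these genes was not tested. *Igf2bp2* fell from 18.2 to 14.9 FPKM (log2 fold change -0.28, limma adjusted p = 0.00334). *Igf2bp3* rose from 19.3 to 28.0 FPKM (log2 fold change 0.54, limma adjusted p = 5.2e-04). Among 8 tested genes that act below the receptors, 3 passed, close to the 41.1% of all genes, and all 3 rose. They were *Irs2*, a docking protein (log2 fold change 0.83), *Pik3r1*, a PI3-kinase subunit (0.66), and the kinase gene *Akt2* (0.27), with limma adjusted p of 0.0175, 0.00149 and 0.0117. *Grb10*, an imprinted inhibitor of these receptors, overlapped between the groups (limma adjusted p = 0.179).

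**Figure D4:**
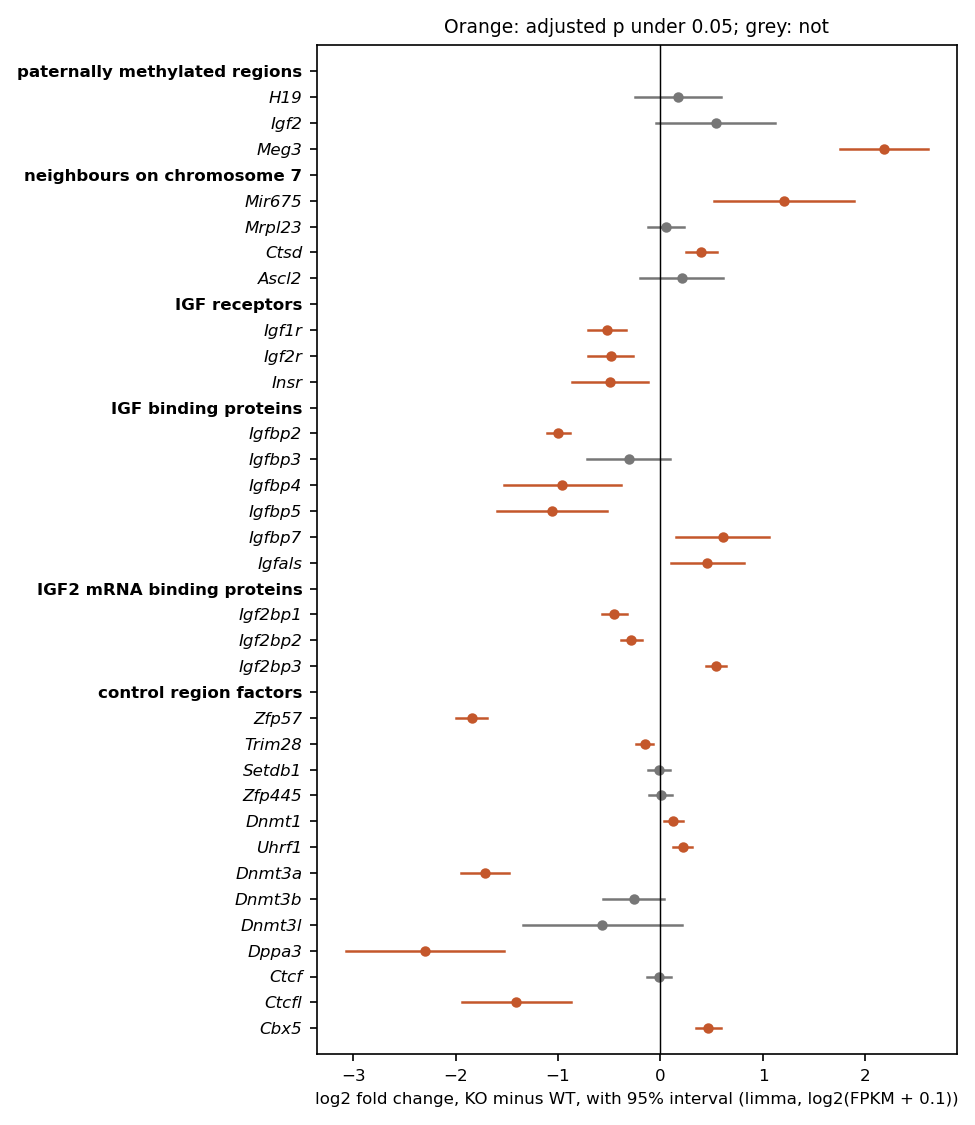
Log2 fold change, KO over WT on log2(FPKM + 0.1), with 95% intervals from limma for H19, Igf2, Meg3, their neighbours, genes of the IGF pathway and genes for factors of the control region. Orange genes pass an adjusted p of 0.05 and grey ones do not, and the H19 and Igf2 intervals include 0.

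The factors that read or keep the mark at the control region were tested as a list of 13 genes, of which 3 rose and 5 fell, where 18.8% of all genes tested rose and 22.3% fell. Of the 5, *Zfp57* is the targeted gene itself. *Ctcf* had a mean of 32.1 ± 1.33 FPKM in WT and 31.8 ± 0.813 FPKM in KO (log2 fold change -0.012, limma adjusted p = 0.857). *Setdb1*, the H3K9 methyltransferase, and *Zfp445*, a second zinc finger gene that acts at imprints, also did not pass (limma adjusted p = 0.82 and 0.952). *Trim28* fell from 157.4 to 141.3 FPKM (log2 fold change -0.15, limma adjusted p = 0.0139). The genes for the maintenance methylation proteins, *Dnmt1* and *Uhrf1*, rose by 0.13 and 0.22 on the log2 scale (limma adjusted p = 0.0353 and 0.00643), and *Cbx5*, which encodes HP1 alpha, rose by 0.47 (limma adjusted p = 0.00121). *Dnmt3a*, a de novo methyltransferase gene, fell from 10.2 to 3.05 FPKM (log2 fold change -1.71, limma adjusted p = 3.27e-04). *Dppa3*, which protects methylation in the early embryo, had 24.2, 35.5 and 37.0 FPKM in WT and 9.04 and 4.43 FPKM in KO (log2 fold change -2.30, limma adjusted p = 0.00266). *Ctcfl*, the germline relative of *Ctcf*, fell from 0.207 to 0.015 FPKM (limma adjusted p = 0.00418). *Dnmt3b* and *Dnmt3l* did not pass. DNA methylation of the control region was not analysed here.

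Markers of tissues in which *H19* and *Igf2* are usually high were measured beside them. The 9 trophoblast markers summed to 1.62 to 1.90 FPKM in WT and 4.68 to 5.55 FPKM in KO. Of 5 tested, 2 rose, *Eomes* and *Krt8*, where 18.8% of all genes tested rose, and the median log2 fold change of the 5 was 0.726. *Cdx2* and *Gata3* had log2 fold changes of 0.726 and 0.585 and did not pass (limma adjusted p = 0.117 and 0.146). For both, each KO library was above all WT libraries, as for 30.3% of all genes tested. *Tpbpa* was at 0 in every library and *Elf5* was at 0 in KO. Without *Eomes* and *Krt8* the other 7 markers summed to 0.72, 0.74 and 0.62 FPKM in WT and 0.82 and 1.02 FPKM in KO. The 8 primitive endoderm markers summed to 0.78 to 0.94 FPKM in WT and 1.12 to 1.44 FPKM in KO. Of 4 tested, 1 rose, *Sox7*, and the median log2 fold change of the 4 was -0.17. Without *Sox7* the other 7 markers summed to 0.85, 0.69 and 0.67 FPKM in WT and 0.54 and 0.64 FPKM in KO, so that *Sox7* alone carried the higher sum. *Gata4*, *Dab2* and *Pdgfra* had log2 fold changes of -0.48, -0.22 and -0.11 and did not pass (limma adjusted p = 0.158, 0.602 and 0.672), and *Gata6* and *Sox17* did not exceed 0.06 FPKM. The 6 mesoderm markers summed to 0.67 to 0.98 FPKM in WT and 1.05 to 1.47 FPKM in KO, and of 2 tested, 1 rose, *T*. The median log2 fold change of the 2 was 0.502, and *Mixl1* was at -0.02 (limma adjusted p = 0.945). Without *T* the other 5 summed to 0.38, 0.47 and 0.47 FPKM in WT and 0.45 and 0.38 FPKM in KO, so that *T* alone carried the higher sum. The part of these differences in the levels of *H19* and *Igf2* was not tested.

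For each of the pair, the 5 genes with the most similar profile over the 5 libraries were found among 10664 genes that averaged 1 FPKM or more, by the Euclidean distance of the centred log2(FPKM + 0.1) values. For *H19* they were *Mia*, *Map9*, *Rpl31-ps12*, *Atp5sl* and *Pcsk7*, at distances from 0.0888 to 0.113. *Mia*, on chromosome 7, had 1.21, 1.53 and 1.32 FPKM in WT and 1.48 and 1.60 FPKM in KO. For *Igf2* they were *Mir8114*, *Rsf1os1*, *Xaf1*, *Lamb2* and *Bola1*, at distances from 0.162 to 0.225. *Lamb2*, which encodes a laminin chain, had 2.52, 2.27 and 2.04 FPKM in WT and 3.30 and 3.34 FPKM in KO. With 5 libraries such likeness is a description only.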

How the data were processed

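The authors deposited expression as FPKM rounded to 2 decimals for 3 WT and 2 KO RNA-seq libraries, from total RNA depleted of ribosomal RNA. ZFP57 peaks, which the study required in 2 or more WT replicates, were given as mm10 intervals without scores. The submitters' processing notes name FastQC 0.11.5, Trim Galore 0.2.7, BWA 0.6.2, Picard, MACS2 2.1.0 and STAR 2.5.2. The annotation, the strand setting of the counting, the peak threshold and the way the hybrid list was made are not given in the sources used here.

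The members and gene lists were chosen with earlier results of these data known. Genes averaging 0.1 FPKM or more (14612 of 24409) were tested on log2(FPKM + 0.1) with limma 3.58.1 in R 4.3.3, eBayes with trend, and Benjamini-Hochberg adjustment over all of them at a threshold of 0.05. The pseudocount understates changes of low genes such as *Igf2*. The p-values measure the spread between these lines only. The test was checked on simulated data. Named genes were *H19*, *Igf2*, genes of the neighbour list or within 200 kb, and pathway or factor genes that passed. With them came sole ligands or receptors and the 5 most similar profiles of each member. Other genes with values were chosen after their values were seen. They are *Igfbp3*, *Grb10*, *Setdb1*, *Zfp445*, *Ctcf*, *Dnmt3b*, *Dnmt3l*, *Insrr*, *Dlk1*, *Cd81*, *Tssc4*, the expression of *Meg3* and *Rasgrf1*, and the markers, whose sums without the members that rose were also added then.

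Genes were placed on GRCm38 RefSeq, 23193 by symbol and 1096 by a synonym, with 107 unmatched and 13 ambiguous. Motifs were searched on both strands with Python 3.11.15, numpy 2.4.6 and pandas 2.3.3, and figures used matplotlib 3.10.9. The value of 1 fragment was fitted to RNA genes of at most 150 bp, where 91.7 to 97.3% of low values lay within 0.15 of a whole number of fragments, against 30.0% for evenly spread values. Fragment numbers assume RefSeq exon lengths. Alternatives covered a replicate block, the removal of single libraries or of chromosome 11, other pseudocounts, filters and scalings, no variance trend, and other windows and peak intervals.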

Additional observations from a re-analysis of the deposited data

How the results depend on the processing

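The *H19* fold change stayed positive and was not called under any alternative, with log2 values from 0.07 to 0.33 and, without single libraries, from 0.07 to 0.27. That of *Igf2* stayed positive, from 0.12 (pseudocount 1) to 0.84 (pseudocount 0.01), and from 0.39 to 0.68 without single libraries. It was called only under quantile normalization, at 0.78 (limma adjusted p = 0.0403, over a range from 0.0403 to 0.363). A filter at a mean of 1 FPKM removes both genes, so it gives no value for them.

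Genes called within 200 kb numbered 2 of 5 tested, where 6002 of 14612 (41.1%) of all genes were called. They were 1 of 4 within 100 kb and 4 of 10 within 500 kb in the same fit. With a mean of at least 1 FPKM they were 1 of 2, where 4890 of 10664 of all genes were called. Under quantile normalization they were 3 of 5, where 5795 of 14612 were called. Without WT replicate 3 they were 1 of 5, and without WT replicate 1 or 2 they were 2 of 5. The 14 of 21 genes called in the IGF pathway became 9 of 15 with a mean of at least 1 FPKM. Without WT replicates 1, 2 and 3 in turn they were 10, 13 and 11 of 21. In these fits 31.8%, 32.6% and 29.3% of all genes were called. The 8 called among 13 factor genes became 7, 7 and 6 in these 3 fits, and the 6002 genes in all became 4628, 4753 and 4257. Without chromosome 11, 5055 of 13388 genes were called, 2682 as rises and 2373 as falls. The 22.3% of all genes that fell thus includes many genes of that chromosome. In the same fit 11 of 17 genes of the IGF pathway were called, 5 as rises and 6 as falls, and 8 of 13 factor genes.

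The deviations of same-numbered WT and KO libraries from their group means correlated at -0.068 and -0.036, so no pairing by replicate number was seen. With 2 KO libraries their deviations mirror each other, so the 2 values are not separate checks. A shared litter or batch was not tested. With a replicate block, *H19* was at 0.17 and *Igf2* at 0.39 (limma adjusted p = 0.363 for *Igf2*). Calls were then 1 of 5 near the pair, 7 of 21 in the IGF pathway and 5 of 13 among the factors. Over all genes they were 3012 of 14612, against 6002 without the block. The block gives no weight to WT replicate 3, which has no KO partner.

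The peaks upstream of *H19* numbered 2 under every window tried and 1 in the hybrid list. The central 200 bp held 1 hexanucleotide in the proximal peak and 0 in the distal one. Fragment numbers limit what can be seen at the levels of *H19* and *Igf2*.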
